A study of Saccharomyces cerevisiae with 10 samples.

Results

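The 10 yeast genes described here encode enzymes that make or break down trehalose and glycogen, the carbohydrate reserves of budding yeast, Saccharomyces cerevisiae. They were chosen by their open reading frame names: TPS1 (YBR126C), TPS2 (YDR074W), TSL1 (YML100W), NTH1 (YDR001C), PGM2 (YMR105C), UGP1 (YKL035W), GSY1 (YFR015C), GSY2 (YLR258W), GPH1 (YPR160W) and GDB1 (YPR184W). They are 10 of 6212 frames listed for the array. Of the 10, 9 had a value on at least 1 array, 5 had a value on all 10 arrays, and GPH1, the glycogen phosphorylase gene, had none.

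Transcript levels were compared between each of 5 mutants of type 2C protein phosphatase genes, the ptc1, ptc2, ptc3, ptc4 and ptc5 strains, and a common wild type (wt). All 6 strains were taken in log phase from YPD rich medium at 28 °C, at an A660 of 0.6 to 0.8. No source used here states the strain background, mating type, number of clones or kind of mutation. A pair of two-colour arrays set each mutant against wt, the first with mutant cDNA in Cy5 and the second with the dyes swapped. The design names 6 RNA samples, but sample titles call the paired arrays experiment 1 and experiment 2, so separate extracts are possible. Each strain was taken as 1 extract, and an SD beside a mean covers those 2 arrays only (n = 2, technical). A difference between a single mutant and wt therefore has no replicate test, and precision is limited by the number of arrays. Values are log ratios (mutant over wt) and were read as log2, so 0 means equal to wt; the base is not stated, and with natural logarithms every fold below would be too small.

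Trehalose and glycogen both draw on glucose 6-phosphate. Phosphoglucomutase and UDP-glucose pyrophosphorylase turn it into UDP-glucose, from which the trehalose synthase complex builds trehalose and glycogen synthase extends glycogen chains; trehalase, glycogen phosphorylase and debranching enzyme release the glucose again. Many genes of both pathways are known targets of the stress transcription factors Msn2 and Msn4 and are held low by protein kinase A in cells growing on glucose.

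The arrays carried between 4195 and 4802 values each, and between 7 and 9 of the 10 genes. Values missing from the deposited table include spots that the submitters left out as small or dim. The second ptc2 array stood apart, its median over all genes being a log2 ratio of 0.23, while the medians of the other 9 lay between −0.029 and 0.035. Values after centring each array on its own median are given where this changes a sign. As a check on the labels, PTC1, PTC3 and PTC5 had mean log2 ratios of −1.91, −7.85 and −2.38 in their own mutants, and PTC2 was at −7.86 on the second ptc2 array, the first having no value. The ptc4 strain could not be checked in this way, as PTC4 was not measured there. Of the mating-type genes listed, 5 of 6 for a cells and 2 of 4 for alpha cells had a value, and none of the 4 tested passed in ptc1 against the other mutants (limma; at an unadjusted p under 0.05, 2 did). MFA1 of the a-cell list and STE3 and MFALPHA1 of the alpha-cell list had no value on any array. SAG1 of the alpha-cell list had a value on all 10. Missing values include spots left out as small or dim, so mating type was not read from them.

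The genes of the 2 reserves lay below wt by mean in ptc3, ptc4 and ptc5, except that NTH1 was level with wt in ptc5. In ptc2 they lay below wt on the first array and on either side of it on the second, and in ptc1 mostly a little above wt on the first array and on either side of it on the second. In ptc1, the 6 genes with both arrays had mean log2 ratios between −0.35 and 0.26, with a median of 0.12, and 4 of the 6 were above 0. Of these 6, 5 were above 0 on the first ptc1 array, with a median of 0.185, and 3 on the second, with a median of −0.01. In ptc2, the 8 genes with both arrays lay between −0.57 and 0.19, with a median of −0.22 (−0.34 after centring). The first ptc2 array had 8 of 8 below 0, with a median of −0.40, and the second, whose median over all genes was 0.23, had 4 of 8 below 0, with a median of −0.02. After centring, 7 of the 8 ptc2 means were below 0, all but that of TPS2. In ptc3, 8 of 8 were below 0, with a median of −0.46; in ptc4, 7 of 7, with a median of −0.50; and in ptc5, 6 of 6, with a median of −0.42. The 6 in ptc5 include NTH1 at −0.001, from arrays at 0.13 and −0.14. The medians over all genes measured on both arrays were −0.028, 0.12, 0.0030, 0.0050 and 0.0245 in ptc1 to ptc5. The reserve genes with both arrays were not the same set in each mutant. Over the 5 with a value on all 10 arrays, the medians were 0.12, 0.04, −0.43, −0.50 and −0.49 in ptc1 to ptc5. In that set 3 of the 5 ptc2 means were above 0, so the lower ptc2 median depends on the genes included. In RNA from a whole culture, fewer cells carrying a transcript and less of it per cell cannot be told apart.

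Agreement of sign on the dye-swapped arrays was more common for these genes than for the arrays as a whole in ptc3 and ptc4. Both arrays were below 0 for 8 of 8 genes in ptc3, where 26.6% of all genes had both below 0, for 7 of 7 in ptc4 (23.4% of all genes) and for 5 of 6 in ptc5 (23.3%), NTH1 being the exception there. In ptc2 this held for 4 of 8, namely TSL1, PGM2, GSY2 and GDB1 (14.6% of all genes). After centring, which lowers every value of the second ptc2 array by 0.23, it held for 6 of 8 in ptc2, TPS1 and NTH1 being added, where 30.4% of all genes had both arrays below 0. In ptc1 both arrays were above 0 for 3 of 6, TPS2, PGM2 and GSY2 (26.4% of all genes), and both below 0 for GSY1 alone (34.2%). All 5 mutants were measured against the same wt RNA, so these counts are not independent of each other. The genes were also chosen with earlier results of these data known.

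**Figure D1:**
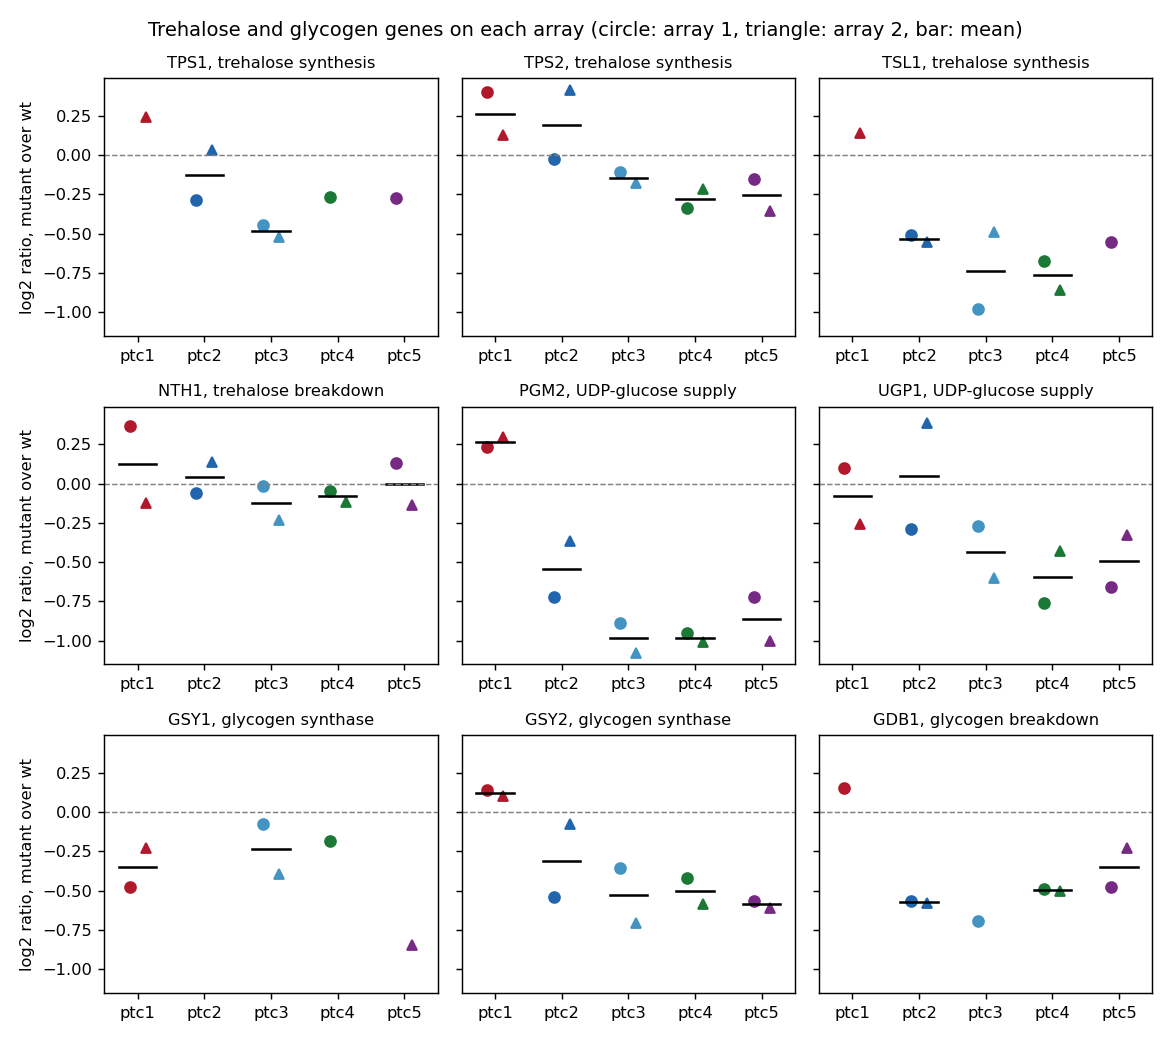
The log2 ratio of mutant over wt (vertical axis) is plotted for 9 genes in ptc1 to ptc5 (horizontal axis), with circles for array 1, triangles for array 2 and a bar at the mean where both arrays had a value. Both PGM2 values in ptc1 lie above 0, at 0.23 and 0.30, and all 8 values in the other mutants lie below it, between −1.08 and −0.37.

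The trehalose synthase complex was represented by TPS1, TPS2 and TSL1. TSL1 encodes a large regulatory subunit of the complex. TSL1 had a log2 ratio of 0.14 on the 1 ptc1 array that measured it, against −0.51 and −0.55 in ptc2, −0.98 and −0.49 in ptc3, −0.67 and −0.86 in ptc4, and −0.55 on the 1 ptc5 array with a value. All 7 values outside ptc1 were below 0, with the ptc4 arrays below those of ptc2 and the ptc3 arrays spanning both. TPS1, the trehalose 6-phosphate synthase itself, was at 0.245 on the second ptc1 array, against −0.28 and 0.03 in ptc2, −0.44 and −0.52 in ptc3, −0.27 on the first ptc4 array and −0.27 on the first ptc5 array. TPS1 was thus lowest in ptc3, and the second ptc2 value, 0.03, came from the array whose median over all genes was 0.23; after centring it was −0.20.

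TPS1 lies next to PTC4, the gene named in the ptc4 strain, in the order of genes of the RefSeq R64 table. The ptc4 value of TPS1, −0.27 on 1 array, lay inside the range of its values in the other 3 mutants outside ptc1, from −0.52 to 0.03. An effect of the mutation itself on its neighbour was not tested.

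TPS2 encodes the phosphatase that turns trehalose 6-phosphate into trehalose. TPS2 had log2 ratios of 0.40 and 0.13 in ptc1, against −0.03 and 0.41 in ptc2, −0.11 and −0.175 in ptc3, −0.34 and −0.21 in ptc4, and −0.15 and −0.36 in ptc5. The ptc1 arrays overlapped with those of ptc2 and lay above those of ptc3, ptc4 and ptc5. Its mean was below wt by 1.10-fold in ptc3, 1.21-fold in ptc4 and 1.19-fold in ptc5.

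NTH1, the neutral trehalase that splits trehalose, was near wt throughout. Its log2 ratios were 0.37 and −0.12 in ptc1, against −0.06 and 0.14 in ptc2, −0.02 and −0.23 in ptc3, −0.05 and −0.115 in ptc4, and 0.13 and −0.14 in ptc5. In 3 of the 5 mutants the dye-swapped arrays of NTH1 had opposite signs, and the arrays of every pair of mutants adjacent in the order of means overlapped. Its ptc2 mean was 0.04 as deposited and −0.09 after centring, and its value on the second ptc2 array was 0.14 as deposited and −0.09 after centring.

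PGM2, the major phosphoglucomutase, which interconverts glucose 6-phosphate and glucose 1-phosphate, was furthest from wt by mean in ptc3, ptc4 and ptc5 among the genes with both arrays. PGM2 had log2 ratios of 0.23 and 0.30 in ptc1, against −0.725 and −0.37 in ptc2, −0.89 and −1.08 in ptc3, −0.95 and −1.01 in ptc4, and −0.72 and −1.0 in ptc5. Both ptc1 arrays lay above all 8 others. The means were 0.26 ± 0.05 in ptc1 and −0.55 ± 0.25, −0.98 ± 0.13, −0.98 ± 0.04 and −0.86 ± 0.20 in ptc2 to ptc5 (SD, n = 2 arrays each), which is 1.2-fold above wt in ptc1 and 1.46-, 1.98-, 1.97- and 1.81-fold below wt in ptc2 to ptc5. In the order ptc1, ptc2, ptc5, ptc4, ptc3, only the step below ptc1 separated the arrays; the arrays of each later pair of neighbours overlapped.

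UGP1, the UDP-glucose pyrophosphorylase, had log2 ratios of 0.10 and −0.26 in ptc1, against −0.29 and 0.385 in ptc2, −0.27 and −0.60 in ptc3, −0.76 and −0.43 in ptc4, and −0.66 and −0.33 in ptc5. UGP1 was the gene on which the ptc2 arrays disagreed most, by 0.68, and its ptc2 mean was 0.05 as deposited and −0.08 after centring. Its arrays in ptc3, ptc4 and ptc5 overlapped, with means of −0.43 ± 0.23, −0.595 ± 0.23 and −0.49 ± 0.23 (SD, n = 2 arrays each).

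The 2 glycogen synthase genes lay on opposite sides of wt in ptc1. GSY2, the major isoform, had log2 ratios of 0.14 and 0.10 in ptc1, against −0.54 and −0.075 in ptc2, −0.35 and −0.70 in ptc3, −0.42 and −0.585 in ptc4, and −0.57 and −0.61 in ptc5. Both ptc1 arrays lay above all 8 others, and the arrays of ptc2 to ptc5 overlapped from neighbour to neighbour. GSY1, the other isoform, had log2 ratios of −0.47 and −0.23 in ptc1, against −0.08 and −0.39 in ptc3, −0.18 on the first ptc4 array and −0.845 on the second ptc5 array, with no value in ptc2. All 6 values of GSY1 were thus below 0, ptc1 included, where GSY2 was above 0 on both arrays. GSY1 was on too few arrays for the fit across genes, so this difference between the isoforms was not tested. The 2 genes are paralogues, and hybridisation shared between them cannot be told apart.

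Glycogen breakdown was represented by GDB1, the debranching enzyme. GDB1 had a log2 ratio of 0.15 on the first ptc1 array, against −0.57 and −0.58 in ptc2, −0.70 on the first ptc3 array, −0.49 and −0.50 in ptc4, and −0.48 and −0.23 in ptc5. All 7 values outside ptc1 were below 0. In ptc2 and ptc4 its arrays differed by 0.011 and 0.012, the smallest array differences among the 35 pairs of a gene and a mutant with both arrays.

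A size rule of at least 1.5-fold on both arrays in the same direction, a log2 ratio of 0.58, took few of these genes against wt. In ptc4 it took TSL1 and PGM2 as lower (2 of 7; 0.65% of all genes), in ptc3 PGM2 (1 of 8; 0.342%) and in ptc5 PGM2 (1 of 6; 1.41%). It took 0 of 6 as lower in ptc1 (0.108% of all genes) and 0 of 8 in ptc2 (1.08%), and none as higher in any of the 5 mutants (1.17%, 1.42%, 0.137%, 0.337% and 0.471% of all genes in ptc1 to ptc5). GDB1 in ptc2, at −0.57 and −0.58, fell just outside the threshold, and TSL1 in ptc4, at −0.67 and −0.86, and PGM2 in ptc5, at −0.72 and −1.0, were the closest inside it. After centring, 2 genes were taken in ptc2, PGM2 and GDB1, and 2 in ptc5, PGM2 and GSY2. With a mean of at least 2-fold required, none was taken in any mutant. No share over all genes was computed for the rule after centring or at 2-fold, so these counts have no background beside them. With a mean of at least 1.5-fold and both arrays of the same sign, the genes taken as lower were TSL1 and PGM2 in ptc3 (2 of 8; 0.502% of all genes), TSL1, PGM2 and UGP1 in ptc4 (3 of 7; 1.06%) and PGM2 and GSY2 in ptc5 (2 of 6; 2.36%). That rule took 0 of 6 as lower in ptc1 (0.217%) and 0 of 8 in ptc2 (1.44%), and none as higher in ptc1 to ptc5 (1.58%, 5.19%, 0.548%, 0.939% and 1.06% of all genes).

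**Figure D2:**
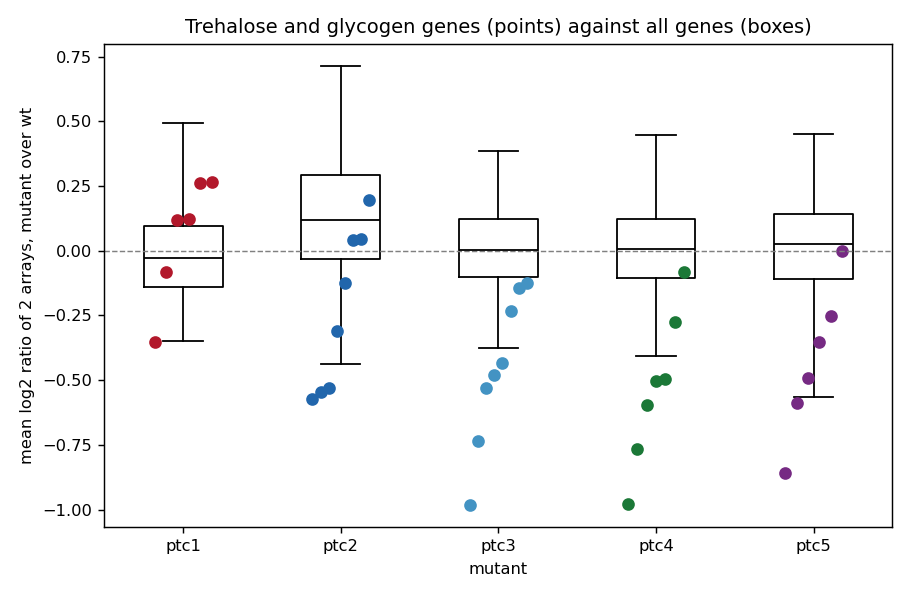
Each point is the mean log2 ratio of mutant over wt (vertical axis) of a trehalose or glycogen gene with both arrays in ptc1 to ptc5 (horizontal axis). Boxes show the quartiles and median of all genes measured on both arrays, and whiskers reach the 2.5 and 97.5 percentiles; the 8 genes in ptc3 and 7 in ptc4 all lie below 0, down to −0.98 in each.

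Because the wt strain is common to all arrays, the mutants were next compared with each other. The 2 arrays of a mutant were averaged, and limma set each mutant against the average of the remaining 4 for the 3606 genes that had a value on every array. The fit had 3 residual degrees of freedom, and the Benjamini-Hochberg adjustment ran over all 3606 genes. The single mutant adds nothing to the residual, so the spread behind each p-value is that among the means of the remaining 4 mutants. It holds differences between those strains and is not a replicate spread of any strain. It may in part be technical, as no label says that the extracts came from more than 1 culture per strain. The fit also assumes that the single mutant varies like the other 4.

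PGM2 was higher in ptc1 than in the other mutants and was the 1 gene called of the 5 tested. Its mean log2 ratio was 0.26 in ptc1 and −0.84 over the other 4, a difference of 1.11 ± 0.18 (SE; 95% interval 0.72 to 1.49), or 2.15-fold (limma, adjusted p = 0.011). It ranked 16 among the 3606 genes from the highest difference down, and 21 by size in either direction; of the 3606, 1.72% were called higher in ptc1 and 1.69% lower. Its difference lay between 1.05 and 1.2 under the 12 alternatives, with adjusted p-values between 0.00014 and 0.22, and the call was lost on the second arrays alone (1.16, limma, adjusted p = 0.22), where 0.158% of genes were called higher.

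GSY2 was 0.12 in ptc1 and −0.48 over the other 4, a difference of 0.60 ± 0.14 (SE; 95% interval 0.28 to 0.92) that missed the threshold (limma, adjusted p = 0.051). A fit with the 10 arrays as samples and a replicate block on array number counts the dye-swapped arrays of an extract as replicates, so its spread is in part technical and its p-values can be too small. In that fit the adjusted p from limma was 0.016, and 3.94% of all genes were called higher in ptc1 and 7.02% lower. After centring it was 0.022, and without the second ptc2 array, an alternative chosen after seeing the data, it was also 0.022. TPS2, UGP1 and NTH1 differed by 0.38 (95% interval −0.02 to 0.78), 0.29 (−0.18 to 0.76) and 0.17 (−0.13 to 0.46), with adjusted p-values from limma of 0.26, 0.48 and 0.52. The sign of the UGP1 and NTH1 differences turned on the second arrays alone.

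Including genes with at least 1 array per mutant brought TSL1, GDB1 and TPS1 into the fit, over 4257 genes. TSL1 was higher by 0.79 ± 0.15 (SE) in ptc1 than over the other 4 (limma, adjusted p = 0.048), on a single ptc1 array. GDB1 differed by 0.68 ± 0.16 and TPS1 by 0.53 ± 0.16, with adjusted p-values from limma of 0.074 and 0.14. The 1 ptc1 array was the second for TSL1 and TPS1 and the first for GDB1. TSL1 had only the first array in ptc5, TPS1 only the first in ptc4 and ptc5, and GDB1 only the first in ptc3. Array number is also dye orientation, and means of 1 and of 2 arrays had equal weight. In these 3 differences mutant and dye orientation cannot be fully told apart. In this fit 2 of 8 genes, TSL1 and PGM2, were called higher in ptc1, where 0.94% of all genes were. All measured ptc1 arrays lay above all measured arrays of the other mutants for 5 of these 8, TPS1, TSL1, PGM2, GSY2 and GDB1, which held for 6.27% of all genes; 3 of the 5 had only 1 ptc1 array.

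**Figure D3:**
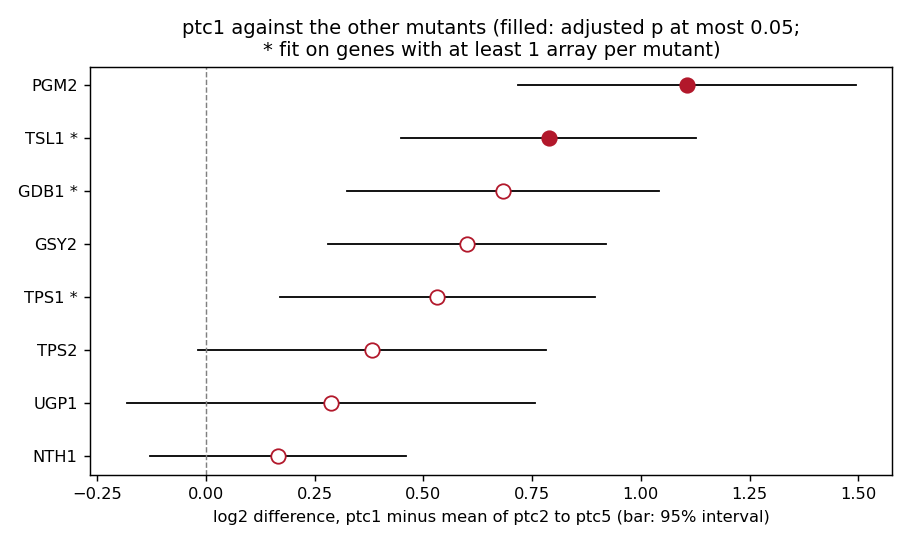
The log2 difference of ptc1 minus the mean of ptc2 to ptc5 (horizontal axis) is drawn for 8 genes with its 95% interval. Filled points had a limma adjusted p of at most 0.05, and an asterisk marks genes fitted with at least 1 array per mutant; all 8 differences are above 0, from 0.17 for NTH1 to 1.11 for PGM2.

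For the strains ptc2 to ptc5, each set against the remaining mutants, none of the 5 genes passed (limma; at an unadjusted p under 0.05 the count was also 0 in each). Over all 3606 genes, 0% were called in either direction in ptc2 and in ptc4, and 0.0277% were called lower in ptc3 and in ptc5. With at least 1 array per mutant, 0 of 8 genes passed in each, where 0.047% of all genes were called lower in ptc2, 0.0235% in ptc3 and 0.0235% in ptc5. In each of these contrasts ptc1 was among the remaining mutants, and where it lay apart it widened the spread. In the fit over 3606 genes the SE of PGM2 was 0.45, 0.40, 0.40 and 0.42 for ptc2 to ptc5, against 0.18 for ptc1. Counts of 0 here therefore do not show that ptc2 to ptc5 were alike.

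The mean of the 5 mutants was also tested against wt, with 4 residual degrees of freedom. This test leaves out the spread of wt itself, since wt was taken as 1 extract. PGM2 averaged −0.62 ± 0.16 (SE), GSY2 −0.36 ± 0.10 and UGP1 −0.31 ± 0.10, with limma adjusted p-values of 0.078, 0.085 and 0.10, while TPS2 and NTH1 averaged −0.04 and −0.01. None of the 5 genes was called (limma; 3 had an unadjusted p under 0.05), against 0.166% of all genes called lower and 0.0277% higher. Without ptc1 the same 3 genes were called below wt, PGM2 at −0.84, GSY2 at −0.48 and UGP1 at −0.37, with limma adjusted p-values of 0.00014, 0.00083 and 0.021; in that fit 5.66% of all genes were called lower and 13.9% higher. With arrays as samples, where the spread is likewise in part technical, the same 3 were called, and with the replicate block 8.51% of all genes were lower and 18.9% higher.

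Other genes of the same pathways were taken from a list of 11, of which 7 had a value on all arrays. That list was chosen with earlier results of these data known. GLC3 and GLK1 were called higher in ptc1 than in the other mutants, 2 of 7, and none was called lower. Of all genes, 1.72% were called higher and 1.69% lower. GLC3, the glycogen branching enzyme, had log2 ratios of 0.21 and 0.57 in ptc1, against −0.72 and −0.35 in ptc2, −0.39 and −0.66 in ptc3, −0.59 and −0.48 in ptc4, and −0.73 and −0.80 in ptc5. Its ptc1 arrays lay above all 8 others, and the difference was 0.98 ± 0.14 (SE; limma, adjusted p = 0.0076). GLK1, a glucokinase that feeds glucose 6-phosphate, averaged 0.31 in ptc1 and between −0.70 and −0.20 in the other mutants, a difference of 0.83 ± 0.18 (SE; limma, adjusted p = 0.036). HXK1 and HXK2, hexokinase genes, differed by 0.60 and −0.46, with limma adjusted p-values of 0.086 and 0.17. The median difference of the 7 was 0.40, beside −0.08 over all genes tested.

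Some related enzymes averaged on different sides of wt; PGM1 and TPS3 were chosen for naming after their values were seen. PGM1, the minor phosphoglucomutase, averaged 0.14 in ptc1 and 0.49, 0.19, 0.12 and 0.18 in ptc2 to ptc5, above wt by mean in each, where PGM2 averaged between −0.98 and −0.55 in those 4. PGM1 lay between 0.22 and 0.38 on the first arrays. On the second arrays it was at 0.02, 0.65, 0.07, 0.03 and −0.02 in ptc1 to ptc5, the 0.65 being on the array whose median over all genes was 0.23. HXK2, the hexokinase that predominates on glucose, averaged −0.12 in ptc1 and 0.59, 0.20, 0.16 and 0.38 in ptc2 to ptc5, where HXK1 averaged between −0.73 and −0.31. HXK2 was at 0.01, 0.51, 0.355, 0.27 and 0.55 on the first arrays of ptc1 to ptc5. On the second arrays it was at −0.26, 0.68, 0.05, 0.05 and 0.20, the 0.68 being on that same shifted ptc2 array. TPS3, the other regulatory subunit of the trehalose synthase complex, averaged 0.23 in ptc1 and between −0.23 and −0.10 in the other mutants, closer to wt than TSL1 in ptc2 to ptc5. Differences between the related enzymes were not tested.

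**Figure D4:**
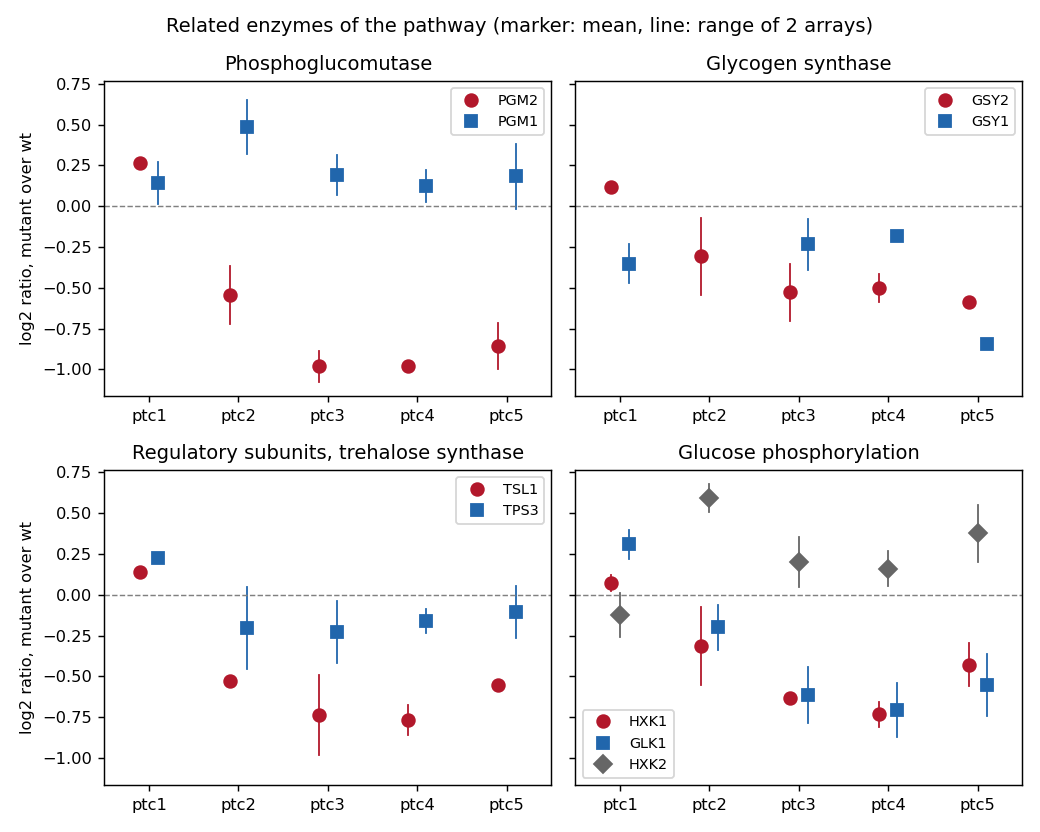
Mean log2 ratios of mutant over wt (vertical axis) are shown in ptc1 to ptc5 for 4 sets of related enzymes, with a line for the range of the 2 arrays. The means of PGM2 lie below 0 and those of PGM1 above 0 in ptc2 to ptc5, and GSY1 lies below 0 and GSY2 above 0 in ptc1.

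Among genes that regulate these enzymes, no difference between ptc1 and the other mutants passed the test. Of 31 listed (protein phosphatase 1 and its targeting subunits, Pho85 cyclins, protein kinase A and the Ras pathway, Msn2, Msn4, Snf1 and others), 22 were tested and 0 passed in ptc1 against the other mutants (limma; 2 had an unadjusted p under 0.05). Their median difference was 0.03. Against wt their medians lay between −0.06 and 0.14 in the 5 mutants, but single genes lay further away, with means over both arrays between −0.85 and 0.51. GAC1, the subunit that targets protein phosphatase 1 to glycogen synthase and is named here after its values were seen, had the lowest of these means, with −0.84 and −0.86 in ptc5. PCL8, a Pho85 cyclin, differed by −0.38, GIS1, a transcription factor, by 0.30, and RIM15, a protein kinase, by 0.22, with limma adjusted p-values between 0.19 and 0.42.

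Among 16 other genes of the stress response, 15 were tested in the same fit. The list was chosen with earlier results of these data known, so its counts are not independent support. In ptc1 9 of them were called higher than in the other mutants and none lower, where 1.72% of all genes were called higher and 1.69% lower. The median difference of the 15 was 0.80. HSP12, a small membrane-associated stress protein, was higher by 3.70, HSP26, a small heat shock protein, by 1.98, and SPI1, a cell wall protein, and MSC1 by 1.38 each, with limma adjusted p-values between 4.63e-05 and 0.017. SOL4, TFS1, GAD1, DDR48 and ALD3 were higher than in the other mutants by between 0.66 and 1.23 (limma adjusted p-values between 0.0017 and 0.033). Against wt, their ptc1 means were 0.14, 0.12, 0.0075, 0.69 and 0.35 in that order. In ptc2 to ptc5, SOL4, TFS1 and GAD1 averaged between −1.23 and −0.76, and DDR48 and ALD3 between −0.44 and −0.04. CTT1, the cytosolic catalase, differed by 0.14 and did not pass. The median of the 15 was 0.14 in ptc1 and between −0.42 and −0.29 in ptc2 to ptc5, and the differences of HSP12, HSP26, SPI1, MSC1 and SOL4 exceeded that of PGM2. The part of the stress response in the values of the reserve genes was not tested.

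Genes repressed by glucose had medians near wt in ptc1 and in ptc3 to ptc5. Of 13 listed, 8 were tested in ptc1 against the other mutants and 0 passed (limma; 3 had an unadjusted p under 0.05), with a median difference of 0.19. ADH2, the alcohol dehydrogenase of ethanol use, differed by −0.50, MLS1, a malate synthase, by 0.50, CIT1, the mitochondrial citrate synthase, by 0.42 and MDH2, the cytosolic malate dehydrogenase, by −0.41. The SEs were 0.16, 0.47, 0.15 and 0.18 in that order, with limma adjusted p-values of 0.11, 0.58, 0.16 and 0.22. MLS1 arrays disagreed widely, at 0.43 and 2.14 in ptc2 and 0.30 and −1.40 in ptc3. The median of the list over wt was −0.05 in ptc1 and 0.19, 0.07, 0.02 and −0.03 in ptc2 to ptc5. ACS1 had no value on any array and PCK1 had 1.

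**Figure D5:**
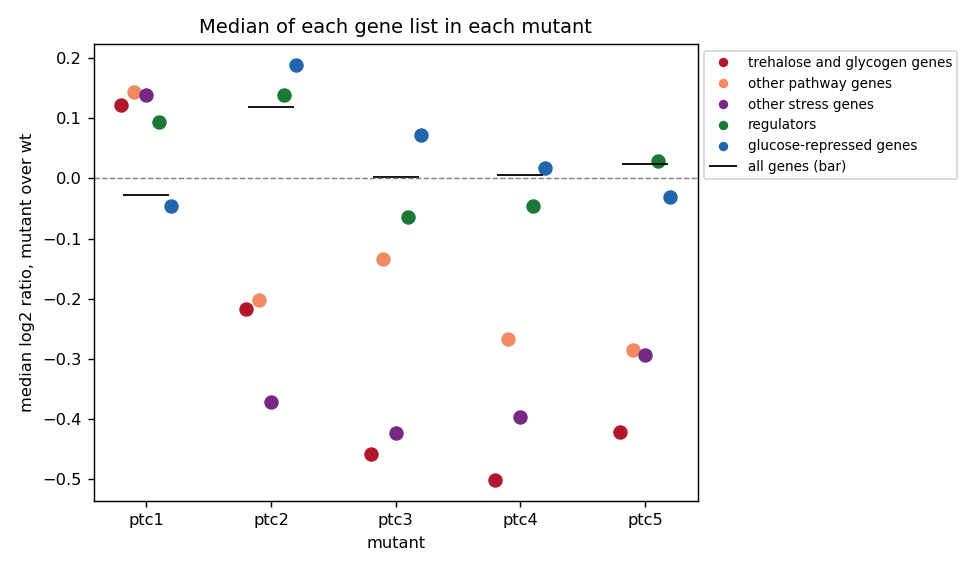
The median log2 ratio of mutant over wt (vertical axis) is plotted for 5 gene lists in ptc1 to ptc5 (horizontal axis), over members with both arrays, with a bar for all genes. The trehalose and glycogen genes have medians of 0.12 in ptc1 and between −0.50 and −0.22 in the other mutants, and the other stress genes 0.14 in ptc1 and between −0.42 and −0.29. Over the 5 trehalose and glycogen genes with a value on all 10 arrays, not drawn here, the ptc2 median is 0.04.

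The genes most like the median profile of the trehalose and glycogen genes were sought among the other genes with a value on all 10 arrays, by the mean absolute difference of log2 ratios over the 5 mutants. MDH1, the mitochondrial malate dehydrogenase, was closest, at a mean difference of 0.046, followed by ARA1, an arabinose dehydrogenase, at 0.054, ATP16, a subunit of the mitochondrial ATP synthase, at 0.057, COX5A, a subunit of cytochrome c oxidase, at 0.061, and FUN14, a mitochondrial protein, at 0.061. MDH1 averaged 0.02 in ptc1 and −0.21, −0.39, −0.45 and −0.425 in ptc2 to ptc5. None of these 5 passed in ptc1 against the other mutants, with limma adjusted p-values between 0.086 and 0.17.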

How the data were processed

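Transcript levels in 5 ptc mutants and wt were measured on 10 two-colour arrays. The deposited values, log ratios of mutant over wt, were taken as log2; per the labels, the authors left out spots under 120 µm across or under 150 intensity units in Cy3 and Cy5. No source used here names the software, the normalization, any background correction or the base of the logarithm. The direction was taken from the labels and from PTC1, PTC2, PTC3 and PTC5, which were negative in their own mutants. Symbols came from a RefSeq table of assembly R64, in which 5639 of 6212 identifiers matched a locus tag. The array's build is not named, so no coordinates are given.

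Values were used as deposited, and the 2 arrays of a mutant were averaged. Tests used limma 3.58.1 in R 4.3.3, and a gene was called at a Benjamini-Hochberg adjusted p of 0.05 or less. Only the fit of ptc1 against the other mutants was tested on simulated data. The simulated noise of a gene was independent and of equal spread in every mutant, so that assumption was not tested. The genes named are the 10 members, PTC1 to PTC5, up to 4 per list by size of the ptc1 difference and those called, and the 5 genes of nearest profile. The values of 1 gene of the regulator list are not reported here, though counts and medians over that list include it. The members and lists were chosen with earlier results of these data known. The array number is also the dye orientation. Array 1 minus array 2 was correlated across genes for every one of the 10 pairs of mutants (r from 0.16 to 0.66), and on that basis same-numbered arrays were treated as paired. Alternatives tried were median centring, other size rules and minimum numbers of arrays, robust limma, the 10 arrays as samples (with or without a replicate block), and fits without 1 array number, 1 mutant or the second ptc2 array.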

Additional observations from a re-analysis of the deposited data

Results flagged for a closer look

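PGM2 differed between mutants by the test of the difference itself, at 1.11 on the log2 scale for ptc1 minus the mean of the other 4 (limma, adjusted p = 0.011), with both ptc1 arrays above wt and both arrays below wt in 4 of the 4 other mutants. GSY2 was also above wt on both ptc1 arrays and below wt on both arrays of 4 of the 4 others, and its difference missed the threshold (0.60; limma, adjusted p = 0.051). TPS2 was above wt on both ptc1 arrays and below wt on both arrays of 3 mutants, ptc3, ptc4 and ptc5; its difference against the other 4 was 0.38 (limma, adjusted p = 0.26), and the differences from these 3 singly were not tested.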

How the results depend on the processing

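In ptc1 against the other mutants, the count of called genes was 1 (PGM2). It was 2 (GSY2 and PGM2) with the replicate block, with each array centred, with robust moderation, without ptc2 and without ptc2 replicate 2, and 2 (PGM2 and TSL1) with at least 1 array per mutant. On single arrays it was between 0 and 1. For ptc2 to ptc5 it was 0 under all 12 alternatives. For the mean of the 5 mutants against wt the count was 0. It was 3 (GSY2, PGM2 and UGP1) with arrays as samples, with or without the replicate block, and without ptc1, and on single arrays between 0 and 2. The replicate block changed no other call of the 5 genes tested. On single arrays the ptc1 difference lay between −0.0373 and 0.368 for NTH1 and between −0.0173 and 0.591 for UGP1, below 0 on the second arrays. Against wt the mean of NTH1 turned to 0.0201 without ptc3 and 0.0096 without ptc4, and lay between −0.0932 and 0.0758 on single arrays; that of TPS2 turned to 0.0158 without ptc4 and 0.0098 without ptc5. The count past the size rule as lower was 1 in ptc3 and in ptc5, 2 in ptc4 and 0 in ptc2. With each array centred it was 2 in ptc2 and 2 in ptc5. With a mean of at least 2-fold it was 0 in ptc3, ptc4 and ptc5, and with a mean of at least 1.5-fold and both arrays of the same sign it was 2 in ptc3 and 2 in ptc5. On single arrays it was between 0 and 1 in ptc2, 3 and 3 in ptc3, 3 and 3 in ptc4, and between 2 and 3 in ptc5. Counts in this section are given without the share of all genes under each alternative, so none is read here as an excess. Single-array medians here cover every member with a value on that array, not only members with both arrays. The ptc4 median was −0.418 and −0.50 on single arrays, and that of ptc2 −0.022 and −0.40, against −0.22 over both arrays. Those of ptc1, ptc3 and ptc5 lay between 0.11 and 0.15, −0.51 and −0.35, and −0.51 and −0.36. Over the 5 genes with a value on all 10 arrays, the ptc2 median over both arrays was 0.04. Over the 6 genes with both arrays, the ptc1 median was 0.185 for array 1 and −0.011, below wt, for array 2. Centring, applied to this count after seeing the data, gave 6 genes with both arrays below 0 in ptc2, against 4 as deposited, and changed this count in no other mutant. The cause of these changes was not tested, beyond there being fewer arrays or mutants where some were left out. No signal over background was analysed here, so the limit it sets for weakly expressed genes is unknown.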
